A study of Mus musculus with 6 samples.

Results

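Lipoprotein lipase and the genes that act on it were read as a group of 8 in the livers of mice made hyperlipidemic by repeated injection of the block copolymer poloxamer P-407. The members were taken by gene symbol, as the enzyme Lpl, its anchor and folding factor Gpihbp1 and Lmf1, its cofactors and inhibitors Apoc2, Apoa5, Apoc3 and Angptl4, and the liver transcription factor Creb3l3. All 8 had a value on every oligonucleotide array, among 16871 genes tested there, and 3 of them (Lpl, Apoa5 and Apoc2) on every cDNA array, among 5011 genes. Each member was read by 1 feature per array type.

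The treated group was 12 female C57BL/6 mice, described as 7 weeks old and kept on chow with 4.4% fat, which received 0.5 g/kg P-407 intraperitoneally every 3 days for 96 days. The control group was 4 mice of the same strain, sex, age and diet that received saline on the same schedule. The 12 treated livers gave 3 RNA pools and the control livers 1 pool, and each treated pool was hybridised once to an oligonucleotide and once to a cDNA array, always in Cy5 against the control pool in Cy3. From the dyes and the sample titles, each value is read as a log2 ratio of a treated pool to that control pool, above 0 where the treated livers held more of the transcript. The files state neither the direction nor the log base: if the ratios ran the other way, every sign, every higher or lower call, every share of control and every rank given here would turn. How far control animals differ is not in these ratios, so p-values measure the spread between pools and arrays alone. With 1 dye orientation throughout, dye bias and treatment cannot be told apart for any gene. Ratios do not show how abundant a transcript was, so the liver label could not be checked by level, and levels of different members could not be compared.

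Lipoprotein lipase splits the triglycerides of chylomicrons and very low density lipoproteins at the capillary wall. LMF1 helps the enzyme fold in the endoplasmic reticulum of the cell that makes it, and GPIHBP1 carries it across the endothelial cell and holds it on the lumen side. APOC2 is its required cofactor and APOA5 favours its action, while APOC3 and ANGPTL4 restrain it. The adult liver makes most of these apolipoproteins in its hepatocytes, whereas hepatocytes of the adult make little of the lipase itself, which comes mainly from adipose tissue and muscle and is also made by macrophages. P-407 is known as an inhibitor of the lipase.

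The lipase and its regulators moved in different directions. On the oligonucleotide array Lpl, Apoc2 and Lmf1 were higher in the treated pools, Apoa5, Apoc3 and Angptl4 were lower, and Gpihbp1 and Creb3l3 did not pass the test. The test was limma's moderated test of the mean of 3 pools against 0, with Benjamini-Hochberg adjustment over all genes tested and a threshold of 0.05. Of the 8 members, 3 were called higher, beside 22.0% of all genes, and 3 lower, beside 21.4%. Together 75.0% of the members were called, beside 43.4% of all genes tested, so a call by itself says little on this array and the sizes matter more. The median log2 ratio of the members was -0.07 and that of all genes 0.0027, with a median absolute log2 ratio over all genes of 0.13. In 7 of 8 members the ratio had 1 sign on all 3 oligonucleotide arrays, beside 69.2% of all genes.

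**Figure D1:**
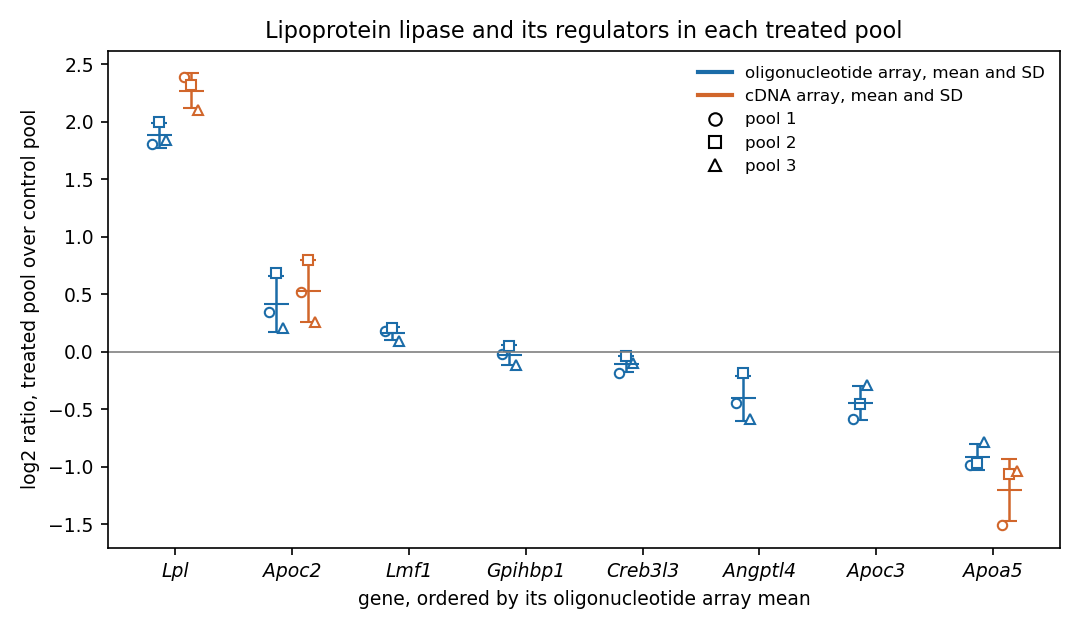
Log2 ratio of treated over control for the 8 members (y axis), ordered by their oligonucleotide mean (x axis), with each pool as an open symbol and the mean and SD of 3 pools as a bar. Lpl stands alone at the top on both array types and Apoa5 is lowest on both, while Gpihbp1 and Creb3l3 lie close to 0.

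The lipase itself gave the largest ratio of the group. On the oligonucleotide arrays Lpl read 1.803, 2.002 and 1.838 in pools 1, 2 and 3. The 3 pools lay close together, and the mean was 1.88 ± 0.11 (SD, n = 3 pools), or 3.68-fold higher in the treated livers (limma adjusted p = 7.32e-05). It ranked 18 from the highest among 16871 genes, and 0.12% of genes had a larger mean in either direction.

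On the cDNA arrays, which carry another probe and were labelled directly without amplification, Lpl read 2.39, 2.32 and 2.10. The mean was 2.27 ± 0.15 (SD, n = 3 pools), a 4.82-fold difference that ranked 43 from the top among 5011 genes. The limma adjusted p was 0.0984, which was also the smallest that any gene reached on that array type: limma called 0 genes there (0.0%), with 1518 genes at an unadjusted p under 0.05, among them all 3 members. With the 2 arrays of a pool averaged, Lpl was at 2.08 ± 0.10 (limma adjusted p = 0.0394), beside 5.10% of genes called in that fit. That call was lost without pool 1 (adjusted p = 0.312) and without pool 2 (adjusted p = 0.225), where no gene was called. With the pool as a replicate block over 6 arrays the limma adjusted p was 5.73e-04. That fit put the correlation between a pool's 2 arrays at 0.054, so it treats 6 arrays almost as separate replicates. Only 3 pools stand behind them.

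Lpl was above 0 in every pool on both array types, and the pool ranges of the array types did not overlap. The oligonucleotide value was lower than the cDNA value by 0.39 (95% interval of oligonucleotide minus cDNA -0.70 to -0.07), and lower in each of the 3 pools. This difference did not pass the threshold after adjustment (limma adjusted p = 0.0998), in a fit without the pool pairing that called 11.4% of genes. All intervals of oligonucleotide minus cDNA given here come from that fit. A limma test of the 3 within-pool differences called 0 genes (Lpl adjusted p = 0.182).

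The members were then set among all genes of the oligonucleotide array. The sizes of Lpl and Apoa5 were rare there and those of the other members were not. A mean larger than that of Apoa5 in either direction was seen in 1.17% of genes, for Apoc3 in 7.18%, for Apoc2 in 8.66%, for Angptl4 in 8.84%, and for Lmf1 in 41.9%. On the cDNA array the shares were 1.04% for Lpl, 9.8% for Apoa5 and 39.0% for Apoc2, so Apoa5 was less rare in size there. Odorant, pheromone and trace amine receptors, whose main site is the sensory epithelium, give a further scale. Of 862 such genes (Olfr, Vmn and Taar families), 36.1% were called in the same fit, and 4.99% had a mean larger in size than that of Angptl4. The largest among them, Olfr497, was at 2.08 ± 3.56, beyond the mean of Lpl but with pools far apart and not called (limma adjusted p = 0.204).

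**Figure D2:**
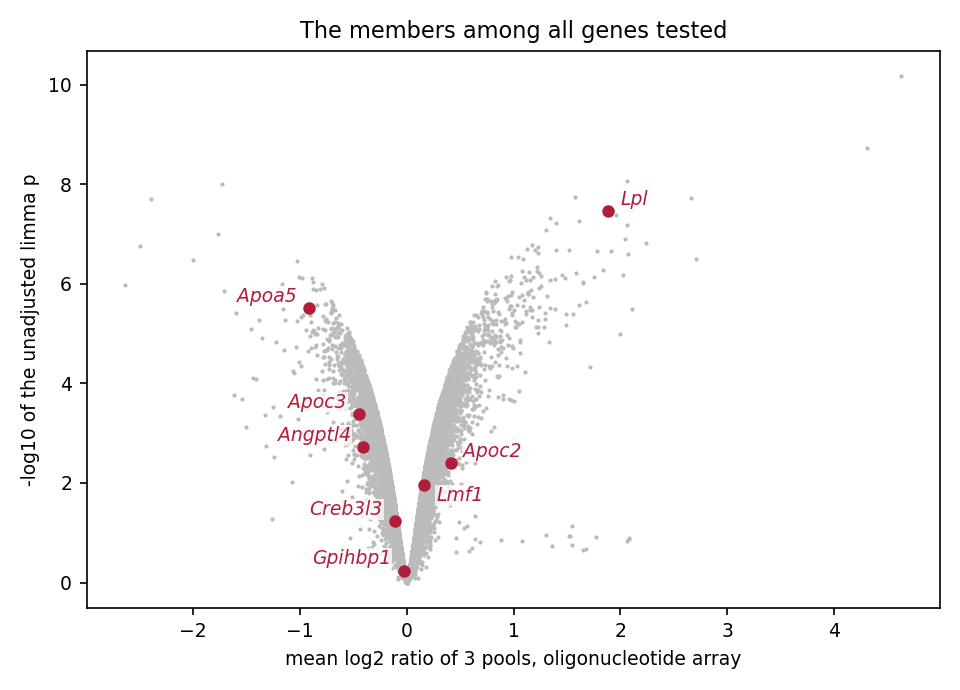
Mean log2 ratio of 3 pools (x axis) against the unadjusted limma p on a -log10 scale (y axis) for every gene tested on the oligonucleotide array, with the 8 members in red. Lpl and Apoa5 lie in the sparse outer parts, and the other members lie within the dense cloud of genes.

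Macrophage markers were mostly higher in the treated pools, as Lpl was. A list of 20 macrophage markers had 18 measured members on the oligonucleotide array, of which 14 were higher and 3 lower. That was 94.4% called, beside 43.4% of all genes. Their median was 1.09 and their pool means were 1.30, 1.07 and 1.12. Trem2, a lipid-binding receptor, was at 4.31 ± 0.19, Lyz2, lysozyme, at 1.84 ± 0.21, and Cd68, a lysosomal glycoprotein, at 1.61 ± 0.09. Of these 18 markers, 3 lay above Lpl, namely Gpnmb, Trem2 and Ctss. On the cDNA arrays 13 of the markers were measured, with a median of 1.32 and 0 called. The order of the pools differed on the oligonucleotide arrays. There Lpl was highest in pool 2 and lowest in pool 1, and the marker mean was highest in pool 1 and lowest in pool 2. On the cDNA arrays both were highest in pool 1 and lowest in pool 3. Marco (-1.24 ± 0.76), Itgam (-0.43 ± 0.06) and Vsig4 (-0.17 ± 0.05) were lower, so the list did not move as one. The part of macrophages in the rise of Lpl was not tested. In liver RNA as a whole, more cells of a type and more RNA per cell cannot be told apart.

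Markers of fat and muscle, the other main sources of the enzyme, were mixed. Of 10 adipocyte markers measured on the oligonucleotide array, 2 were higher and 3 lower, with a median of -0.08 and pool means from -0.14 to -0.11. Calls made up 50.0% of them, beside 43.4% of all genes. Thrsp, a factor of fatty acid synthesis that hepatocytes also make, fell furthest (-2.003 ± 0.22). Without it, in a count made after the data were seen, the pool means of the other 9 markers were 0.10, 0.09 and 0.05. The cDNA arrays measured 5 of the list and 0 were called, with a median of 0.25 and pool means of 0.75, 0.47 and 0.09. Adipoq, the adipocyte hormone adiponectin, was at -0.11 ± 0.06 on the oligonucleotide array and was not called, and Plin1, the coat protein of adipocyte droplets, fell (-0.34 ± 0.04). The higher ones were Fabp4 (1.23 ± 0.21), a fatty acid carrier of adipocytes and macrophages, and Pparg (0.30 ± 0.02), a nuclear receptor of the same cells. Of 12 striated muscle markers, 4 were higher and 1 lower (41.7% called), with a median of 0.02. The highest was Tnni2, a troponin of fast muscle, at 0.45 ± 0.13. Stellate cell markers were mostly higher on the oligonucleotide array, 10 of 12 with 1 lower (91.7% called) and a median of 0.49, led by Col3a1 (0.85 ± 0.05). The cDNA arrays measured 8 of them, with a median of 0.54 and 0 called. Acta2, Dcn and Des, each called higher on the oligonucleotide array, had cDNA means of -0.20, -0.04 and -0.18.

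**Figure D3:**
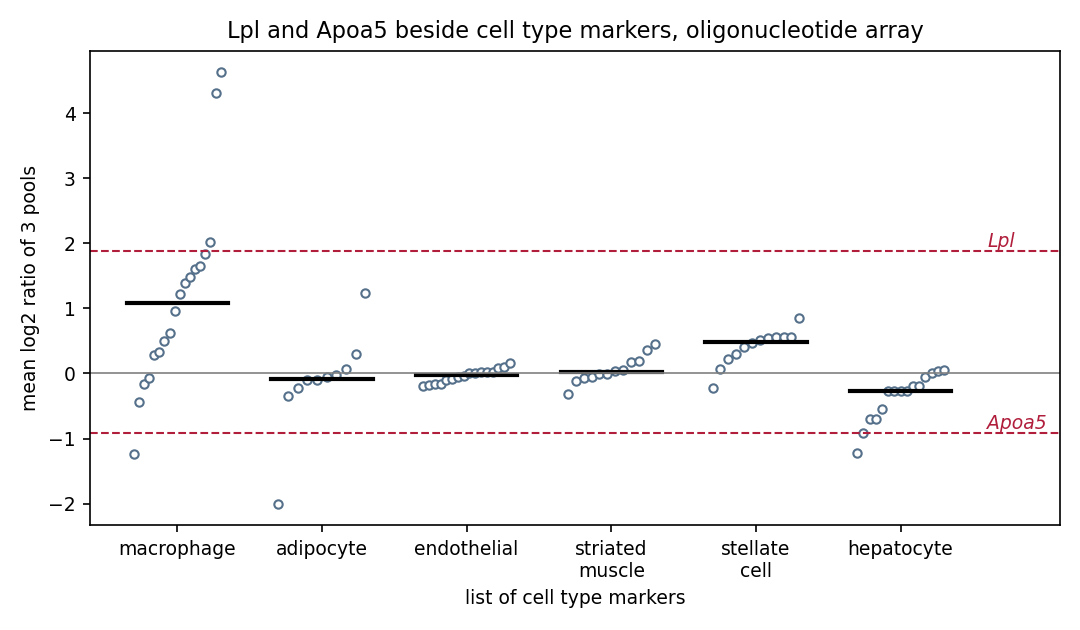
Mean log2 ratio of 3 pools on the oligonucleotide array (y axis) for each measured marker (open circles) of 6 cell type lists (x axis), with the list median as a black bar and the means of Lpl and Apoa5 as dashed lines. Lpl lies above every adipocyte, endothelial, muscle, stellate and hepatocyte marker measured, and below 3 macrophage markers.

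By distance over the 3 oligonucleotide arrays, the genes most like Lpl were Ccl6 (mean 1.78, distance 0.32), Blnk (1.95, 0.35), Capg (1.91, 0.35), Arhgap25 (2.06, 0.38) and Pld3 (1.75, 0.40). Ccl6 encodes a chemokine, Blnk an adaptor of immune receptor signalling and Capg an actin-capping protein. Likeness here is the Euclidean distance of 3 ratios that share 1 control pool, so it mainly reflects a similar size.

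The partners that fold and anchor the enzyme changed little. Lmf1 read 0.18, 0.21 and 0.09 in pools 1 to 3, a 1.12-fold higher mean of 0.16 ± 0.06 (SD, n = 3 pools, limma adjusted p = 0.0297). That call was lost without pool 1 (0.15, adjusted p = 0.152) and without pool 2 (0.14, adjusted p = 0.117). Gpihbp1 read -0.02, 0.05 and -0.12, so its pools fell on both sides of 0. Its mean was -0.03 ± 0.08 (limma adjusted p = 0.660) with a 95% interval of -0.15 to 0.09. GPIHBP1 is made by capillary endothelial cells, and endothelial markers also lay near 0 on the oligonucleotide array. Of 16 measured there, 0 were higher and 4 lower, beside 22.0% and 21.4% of all genes. Their median was -0.02, with a lowest value of -0.19 and a highest of 0.16. The cDNA arrays measured 8 of them, with a median of -0.01 and 0 called. There the means were wider, from -0.70 in Egfl7 to 0.81 in Stab1.

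Among the cofactors, Apoc2 rose and Apoa5 fell. Apoc2 read 0.34, 0.68 and 0.21 on the oligonucleotide arrays, highest in pool 2 and lowest in pool 3. Its mean was 0.41 ± 0.24 (SD, n = 3 pools), 1.33-fold higher (limma adjusted p = 0.0147), and its spread over pools was larger than that of 97.0% of genes or equal to it. On the cDNA arrays it read 0.52, 0.80 and 0.26, again with pool 2 highest and pool 3 lowest, with a mean of 0.53 ± 0.27 (limma adjusted p = 0.146). Over both array types Apoc2 was at 0.47 ± 0.26 and not called (limma adjusted p = 0.0917), and with the pool as a replicate block it was called (adjusted p = 0.0223). The 2 array types differed by -0.12 (oligonucleotide minus cDNA, 95% interval -0.61 to 0.38, limma adjusted p = 0.692).

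Apoa5 gave the largest decrease of the group. It read -0.99, -0.97 and -0.78 on the oligonucleotide arrays, every pool well below 0. The mean was -0.91 ± 0.11 (SD, n = 3 pools), leaving 53.1% of the control level (limma adjusted p = 4.05e-04), and it ranked 56 from the lowest among 16871 genes. On the cDNA arrays it read -1.51, -1.06 and -1.04, with pool 1 lowest, a mean of -1.20 ± 0.27 and a limma adjusted p of 0.0984. Averaged over both array types it was at -1.06 ± 0.17, 2.08-fold lower (limma adjusted p = 0.0394). As for Lpl, that call was lost without pool 1 (adjusted p = 0.312) and without pool 2 (adjusted p = 0.225). The difference between array types was 0.29 (oligonucleotide minus cDNA, 95% interval -0.12 to 0.70, limma adjusted p = 0.262). The genes nearest to Apoa5 over the 3 oligonucleotide arrays were Tdo2 (-0.91, distance 0.08), an enzyme of tryptophan breakdown, Stard4 (-0.94, 0.10), a sterol carrier, Arrdc2 (-0.87, 0.10), Klf2 (-0.88, 0.14) and Cyp2a4 (-0.99, 0.15).

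The inhibitors Apoc3 and Angptl4 were both lower. Apoc3 read -0.59, -0.46 and -0.29, a mean of -0.45 ± 0.15 (SD, n = 3 pools) or 73.5% of the control level (limma adjusted p = 0.0036). Angptl4, a secreted protein that inactivates the lipase and responds to fatty acids through PPAR receptors, read -0.45, -0.19 and -0.58. Pool 2 lay nearest to 0, and the mean was -0.41 ± 0.20 or 75.4% of the control level (limma adjusted p = 0.00902). The sizes of both fell within those of hepatocyte markers in the same pools. Of 15 measured hepatocyte markers, 0 were higher and 5 lower, which was 33.3% called, beside 43.4% of all genes. Their median was -0.28, with pool means from -0.38 to -0.36. The lowest value was -1.23 in Tat, an enzyme of tyrosine breakdown. Of these markers, 4 (Alb, Ahsg, Fgb and Serpina1d) carried a single ratio that 10 genes shared, and the median of the other 11 was -0.20, in a count made after the data were seen. Of the 15 markers, 3 had a mean above 0, so the list did not move as one. Whether the lower hepatocyte markers have a part in the decrease of Apoa5, Apoc3 and Angptl4 was not tested. On the oligonucleotide array Tat was the 1 hepatocyte marker below Apoa5, and Tdo2 (-0.91 ± 0.13) lay level with Apoa5. This likeness was not seen on the cDNA arrays, where Tdo2 was at -0.34 ± 0.09 and Apoa5 at -1.20. Trf lay level with Apoa5 there (-1.21 ± 0.16), though it was at 0.01 ± 0.04 on the oligonucleotide array. The cDNA arrays measured 10 hepatocyte markers, with a median of -0.20 and 0 called.

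In the order of the oligonucleotide means, neighbours were compared pool by pool. Lpl exceeded Apoc2 by 1.47 ± 0.16 and the ranges lay far apart. Apoc2 exceeded Lmf1 by 0.25 ± 0.20 with ranges only 0.0031 apart, and Lmf1 exceeded Gpihbp1 by 0.19 ± 0.03. Gpihbp1 and Creb3l3 overlapped (0.08 ± 0.09), and so did Angptl4 and Apoc3 (0.04 ± 0.29), so neither pair was ordered beyond its spread. Creb3l3 lay above Angptl4 by 0.30 ± 0.17, with ranges only 0.0054 apart. Apoc3 lay above Apoa5 by 0.47 ± 0.06, in each pool by at least 0.40.

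Apoa5 and Apoc3 are neighbours on chromosome 9, in a cluster of apolipoprotein genes with Apoa1 and Apoa4, and the measured genes of that cluster were all lower. Apoa1, the main protein of high density lipoprotein, was at -0.23 ± 0.07 (limma adjusted p = 0.00922), nearer to 0 than Apoc3, and Apoc3 nearer than Apoa5. Apoa4 had no value on the oligonucleotide array. The genes outside the cluster did not pass the test: Sik3 was at -0.02 ± 0.06 on one side, and Zpr1 (-0.06 ± 0.10) and Bud13 (0.05 ± 0.06) on the other. On chromosome 7 the neighbours of Apoc2 were mixed. Relb, a subunit of NF-kappaB, was higher (0.23 ± 0.11, limma adjusted p = 0.0165). Apoc4 was lower (-0.23 ± 0.12, limma adjusted p = 0.021), and Apoc1 and Apoe were each at -0.28 ± 0.26 and not called (limma adjusted p = 0.0626). Apoc1 and Apoe belong to the 10 genes given above, whose ratios were equal on each array to within 0.001, among them Alb, so their values may not be their own. On the cDNA arrays Apoe, a ligand for remnant uptake, read -1.84, -1.20 and -1.41, with a mean of -1.48 ± 0.33, not called (limma adjusted p = 0.0984). Clptm1, between Relb and Apoc2, was at -0.06 ± 0.11.

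**Figure D4:**
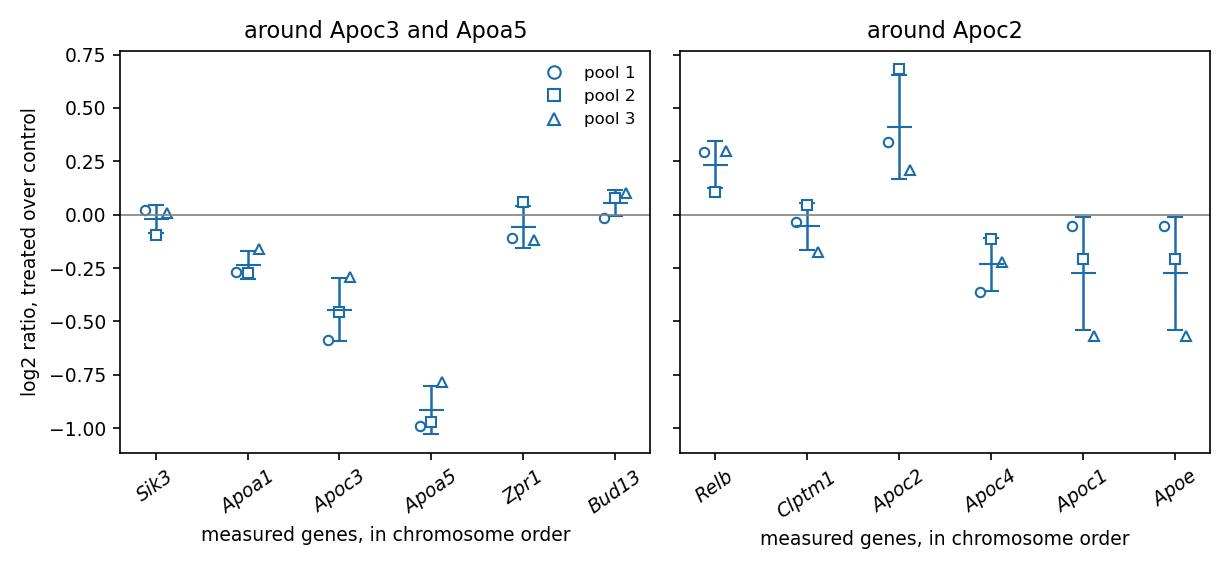
Log2 ratio of treated over control on the oligonucleotide array (y axis) for the measured genes around Apoc3 and Apoa5 (left) and around Apoc2 (right), in chromosome order (x axis), with each pool as an open symbol and the mean and SD as a bar. Apoa1, Apoc3 and Apoa5 lie below 0 in every pool, and Apoc2 lies above 0 in every pool beside Apoc4 below 0.

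Creb3l3 encodes CREB3L3, a membrane-bound transcription factor of liver and gut that is known to drive Apoa5 and Apoc2, among other genes. Its own RNA read -0.18, -0.04 and -0.10, a mean of -0.11 ± 0.07 (SD, n = 3 pools) that did not pass the test (limma adjusted p = 0.108, 95% interval -0.22 to 0.01). Its 2 targets in the group, Apoa5 and Apoc2, changed in opposite directions on the oligonucleotide array and had means of opposite sign, not called, on the cDNA array, so their upstream sequences are shown. They are the 250 bases before the start site in the RefSeq annotation of GRCm38.p6, 5′ to 3′ on the gene's strand, from chr9:46268358-46268607 on the plus strand for Apoa5 (the first of 2 windows) and chr7:19677942-19678191 on the minus strand for Apoc2. Capitals mark matches to 4 short motifs searched on both strands: AGGTCA, the core that nuclear receptors bind; TGACG, part of the cAMP response element; CACGTG, the E-box; and TATAAA, the TATA box. No matches marked here overlap each other.
Apoa5: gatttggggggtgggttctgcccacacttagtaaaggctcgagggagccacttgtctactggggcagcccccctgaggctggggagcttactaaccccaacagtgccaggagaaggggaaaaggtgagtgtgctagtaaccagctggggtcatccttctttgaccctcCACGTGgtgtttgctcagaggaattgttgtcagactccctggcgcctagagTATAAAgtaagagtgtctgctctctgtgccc
Apoc2: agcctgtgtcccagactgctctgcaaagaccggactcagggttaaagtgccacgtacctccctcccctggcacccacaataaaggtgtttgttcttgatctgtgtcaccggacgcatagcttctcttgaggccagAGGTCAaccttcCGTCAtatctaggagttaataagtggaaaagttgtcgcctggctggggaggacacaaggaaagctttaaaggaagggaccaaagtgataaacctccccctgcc

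The Apoa5 window held CACGTG, 82 bases before the start, and TATAAA, 31 bases before it. The Apoc2 window held AGGTCA 115 bases and TGACG, on the opposite strand, 103 bases before the start. Of all 32851 windows of 250 bases in the table, AGGTCA was in 14.0%, TGACG in 17.8%, CACGTG in 6.02% and TATAAA in 12.4%. A match describes these letters only and is not shown to be a bound site. RefSeq windows were matched for 4 of the 8 members.

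Other genes that respond to CREB3L3 or act on it did not share 1 direction. Of 12 measured on the oligonucleotide array, Apoa5 and Apoc2 included, 2 were higher and 4 lower, with a median of -0.04. Mbtps1, which acts on CREB3L3, was among the 12 and was not called (0.03 ± 0.01). That was 50.0% called, beside 43.4% of all genes. Insig2, which restrains sterol synthesis, rose by 0.92 ± 0.14, while Hamp, the iron hormone hepcidin (-1.06 ± 0.29), Pck1 of gluconeogenesis (-0.73 ± 0.20) and Apoa1 fell. Fgf21, a fasting hormone that CREB3L3 and PPARA both drive, was at -0.02 ± 0.08 and was not called.

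Genes that respond to PPAR receptors, as Angptl4 does, were mostly not called. Of 19 measured, Angptl4 and Creb3l3 included, 3 were higher and 2 lower, with a median of -0.05. That was 26.3% called, beside 43.4% of all genes. The array types went opposite ways for Pdk4, a kinase that slows glucose oxidation. It was called higher on the oligonucleotide array (1.29 ± 0.24) and was at -0.67 ± 0.24 on the cDNA array, not called there, so its direction is unsettled. Plin2, a coat protein of lipid droplets, rose by 0.36 ± 0.15 and Acot1, a thioesterase, by 0.28 ± 0.17. Acot3 of the same enzyme family fell (-0.89 ± 0.14). Cpt1a, which admits fatty acids to mitochondria, was at -0.05 ± 0.05 and not called.

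Of 24 measured transcription factors and cofactors that act on the members, 3 were higher and 7 lower, with a median of -0.03. The called share, 41.7%, was near the 43.4% of all genes. Ppara, the fatty acid receptor of hepatocytes, fell (-0.53 ± 0.15) and read -1.06, -0.83 and -0.62 on the cDNA arrays. Foxo1, a fasting factor that acts on Apoc3, fell (-0.51 ± 0.16), as did Ppargc1b (-0.34 ± 0.16). Mlx, the partner of the carbohydrate sensor, was lower on the oligonucleotide array (-0.32 ± 0.03) and read 0.90, 0.19 and -0.44 on the cDNA arrays, not called. Pparg, which acts on Lpl in adipocytes and macrophages, rose, and read 2.29, 0.97 and 0.39 on the cDNA arrays, where its pools were far apart. Foxa2 (0.37 ± 0.24) and Nr2f1 (0.25 ± 0.0047) were higher on the oligonucleotide array. On the cDNA arrays Foxa2 was at 0.89 ± 0.35 and Nr2f1 read 1.24, -0.20 and -0.72, neither called. Hnf4a, which acts on Apoc3, was at -0.06 ± 0.04 and Nr1h3, the sterol sensor that acts on Lpl, at 0.06 ± 0.01, neither called. Nr1h3 was at -0.48 ± 0.32 on the cDNA arrays, also not called.

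Of 24 other regulators and vessel-wall partners of the lipase, 5 were higher and 5 lower, with a median of -0.08, and 41.7% were called beside 43.4% of all genes. Angptl8, a secreted protein induced by feeding, rose by 0.46 ± 0.15 (limma adjusted p = 0.00354), opposite in direction to Angptl4. Furin, a protease that cleaves the lipase, fell (-0.36 ± 0.11), and Sel1l, which the enzyme needs to leave the endoplasmic reticulum, was lower at -0.15 ± 0.07. Among genes of the heparan sulfate chains that bind the enzyme, Hs2st1 (0.28 ± 0.06), Hpse (0.20 ± 0.09) and Agrn (0.15 ± 0.06) were higher on the oligonucleotide array, where Hs2st1 differed in sign from the cDNA array (-0.05 ± 0.18, not called there), and the core protein Sdc4 (-0.49 ± 0.13) and Hs6st1 (-0.31 ± 0.05) were lower.

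Of 14 genes for the uptake of lipoprotein remnants and fatty acids, 5 were higher and 3 lower, with a median of -0.02. Calls made up 57.1% of them, beside 43.4% of all genes. Vldlr, a receptor that takes up triglyceride-rich particles together with the lipase, fell on the oligonucleotide array (-0.48 ± 0.04, limma adjusted p = 9.19e-04) and was at 0.32 ± 0.41 on the cDNA array, not called. Fabp4, given above, and Fabp5 (0.46 ± 0.13), both carriers of macrophages, rose together with Lsr (0.21 ± 0.13) and Slc27a4 (0.16 ± 0.10). On the cDNA arrays Fabp5 was at 2.57 ± 0.38 and Fabp4 at 1.70 ± 0.67, neither called, so the size of the Fabp5 rise differed widely between array types. Slc27a5 (-0.39 ± 0.19) and Got2 (-0.37 ± 0.13) fell. Cd36, a fatty acid transporter, was at 0.10 ± 0.08 and not called, and Lrp1, a remnant receptor, was at -0.07 ± 0.03 and not called.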

How the data were processed

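Liver RNA of 3 treated pools was read against 1 control pool on 2-colour Agilent oligonucleotide and cDNA arrays. Per the labels' protocols, 0.5 ug of RNA was amplified and labelled for the oligonucleotide array and 10 ug was labelled directly for the cDNA array. The deposited values are 1 log ratio per feature, read here as log2; for the authors' normalization, log base and direction, the sources used here give no statement. The largest absolute value was 6.34, and medians of non-zero features ran from -0.09 to 0.0093. The direction was taken from the dyes and titles. On a natural log scale the oligonucleotide fold of Lpl would be 6.56. No intensities were used, so the number of arrays limits the precision, and nothing here says that mice were spread over pools at random.

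Exact zeros were taken as missing, the median of the remaining features was subtracted array by array, and features naming 1 gene in the platform annotation were averaged per gene. Of 22575 oligonucleotide features, 18658 named 1 gene, 30 several and 3887 none, and of 13482 cDNA features, 7410, 438 and 5634. A RefSeq table of GRCm38.p6 held 18445 and 7332 of their gene IDs. Tests used limma 3.58.1 in R 4.3.3 (lmFit, eBayes, Benjamini-Hochberg), checked on simulated data, with Python 3.11.15 for tables. Per the series' design text, the same RNA went on a cDNA and an oligonucleotide array, so pool numbers pair the arrays, and the correlation of same-numbered deviations over 4702 genes was 0.06, 0.07 and 0.07. The members and lists were chosen with earlier results of these data known. Named genes were all members, up to 4 genes per list and direction with the smallest p, defining markers, and the 5 genes nearest to Lpl and to Apoa5. Fgf21, Cpt1a, Hnf4a, Nr1h3, Cd36, Lrp1, Sel1l and the genomic neighbours were added after their values were seen.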

Additional observations from a re-analysis of the deposited data

How the results depend on the processing

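For the 8 members on the oligonucleotide array, leaving out centring, keeping zeros, taking the median over features, making array spreads equal, a robust prior and accepting 2 arrays left every direction and every call as reported. With 1 pool left out, Lmf1 lost its call without pool 1 and without pool 2, and Gpihbp1, never called, was at 0.02 without pool 3. Genes called on the oligonucleotide array numbered 4025 to 6244 with 1 pool left out, against 7318. The cDNA array gave 0 calls under every alternative, with adjusted p of Lpl from 0.0598 to 0.450. Over both array types, 240 genes were called, 0 to 531 with 1 pool left out and 1267 with the pool as a replicate block. The difference between array types, fitted without the pool pairing, called 537 genes, and 0 to 1062 with 1 pool left out. A test of the 3 within-pool differences called 0. No member had several features, so no fit of single features was needed. Depth is unknown, since the values are ratios.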

Other observations

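Genomic neighbours of the members outside the apolipoprotein clusters were looked at after the results were known. The nearest measured genes around Lpl on chromosome 8 did not move with it. Ints10 was at 0.11 ± 0.19, Csgalnact1 at -0.04 ± 0.05, Slc18a1 at 0.05 ± 0.08 and Atp6v1b2, a subunit of the lysosomal proton pump, at 0.10 ± 0.09, none of them called by limma on the oligonucleotide array. Around Angptl4 on chromosome 17, Rab11b was higher (0.24 ± 0.08, limma adjusted p = 0.0107), Kank3 was not called (-0.09 ± 0.08), and Cd320, the fourth gene along, picked for its value and the uptake receptor for the vitamin B12 carrier, was lower (-0.35 ± 0.20, limma adjusted p = 0.0147). Cd320 read -0.33, -0.16 and -0.56 in pools 1 to 3, and Angptl4 -0.45, -0.19 and -0.58. Their pools thus stood in the same order, with 3 pools and no test of that likeness. Rps28 and Ndufa7, which lie between Kank3 and Cd320 and were not called, had the same order too, while Rab11b and Kank3 did not. The shared order therefore does not single out Cd320.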
